A study of Mus musculus with 6 samples.

Results

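The genes described here are 8 members of the tumour necrosis factor (TNF) family of cytokines and their receptors, measured in intraepithelial lymphocytes, the T cells that sit between the epithelial cells of the mouse small intestine. They were 6 ligand genes, Tnf, Lta, Ltb, Fasl, Tnfsf10 and Tnfsf11, and 2 receptor genes that carry a death domain, Fas and Tnfrsf21. Every probe set whose platform gene symbol was one of these names was taken, which gave 10 probe sets of the 12488 on the Affymetrix MG-U74Av2 array. Lta and Fas had 2 probe sets each, and 1 of those for Fas is an array control. The other 9 all passed the filter on dim signals and were tested among 8299 probe sets.

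The 3 groups were sorted subsets of these cells. TCRgd CD8aa cells carry the gamma delta T cell receptor and the CD8 alpha homodimer, TCRab CD8aa cells the alpha beta receptor and the same homodimer, and TCRab CD8ab cells the alpha beta receptor and the CD8 heterodimer of conventional cytotoxic T cells. All came from untreated C57BL/6 mice under 8 weeks of age and were used fresh. In each of 2 experiments, held on separate occasions, cells of 20 mice were pooled, the 3 subsets were sorted from the pool and each was put on 1 array, so that each subset had 2 arrays. The titles of the gamma delta samples write TCRgb, and their source names, which write TCRgd, were followed.

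Ligands of the TNF family are trimers, made as membrane proteins and often shed, that draw receptors together on the target cell. Receptors with a death domain, such as Fas, can assemble a complex that activates caspase-8 and kills the cell, while most of the family also feed NF-kB signalling. Intraepithelial lymphocytes are known for killing stressed epithelial cells with granules and Fas ligand, and other ligands of the family shape lymphoid tissue and the epithelium of the gut.

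Values are MAS5 signals, an intensity in linear units that can be compared between arrays for 1 probe set but not between probe sets. Signals under 15.3, the 20th percentile of all values, were set to that floor before log2 was taken. For beta-actin, the 3′ control exceeded the 5′ control by 40.4 to 52.2 times on the arrays of experiment 2 and by 1.41 to 1.76 times on those of experiment 1. The CD8 part of the labels was checked against its markers, and the receptor part was not checked here. Cd8b1, the CD8 beta chain, had signals of 28.1 and 763 in TCRgd CD8aa, 29.5 and 182 in TCRab CD8aa, and 17650 and 27590 in TCRab CD8ab, in experiments 1 and 2. Cd8a, which all 3 subsets share, had 6609 to 17410 on the 6 arrays. The TCRgd CD8aa array of experiment 2 stood apart in markers of other cells. The summed signal of 17 enterocyte probe sets was 1691 and 27231 in TCRgd CD8aa, 2649 and 1477 in TCRab CD8aa, and 2023 and 1313 in TCRab CD8ab. That array also had a summed signal of 5006 for 8 goblet and Paneth cell probe sets, against 287 to 529 on the other 5. Lyz2, a lysozyme of macrophages, had 303 there on its brighter probe set, against 5.4 to 11.4. The summed signal of all 20 macrophage and dendritic cell probe sets was 3454 there, against 1332 to 3515 on the other 5. By that sum the array did not stand apart, but the sum includes Itgax, bright on all 6 arrays (625 to 2233). Within the list, H2-Aa had 417 there, against 6.6 to 181 on the other 5. H2-Ab1 had 280 against 10.1 to 118, and Cd74 438 against 97.2 to 212. Cd68 went the other way on its brighter probe set, with 76.1 against 85.6 to 330. Cells of a pool are a mixture, so fewer cells that make an RNA and less of that RNA per cell cannot be told apart in any value below.

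Between TCRab CD8aa and TCRab CD8ab, the largest differences among the 8 genes were those of Tnfsf11 and Tnfrsf21, which ran in opposite directions. Tnfsf11, which encodes RANKL, was 9.59-fold lower in TCRab CD8aa than in TCRab CD8ab, and Tnfrsf21, which encodes death receptor 6, was at least 11.9-fold higher. Both were called by limma only with the experiment as a term of the fit, and no member was called without it. Neither call held in that fit without the filter on dim probe sets (adjusted p in limma of 0.535 for Tnfsf11 and 0.522 for Tnfrsf21) or without the intensity trend (0.0998 and 0.0918). With the filter at the 60th percentile Tnfsf11 had 0.0534, and Tnfrsf21 was not tested. Ltb differed between the experiments more than between the subsets. Fasl, the ligand of Fas, was bright on all 6 arrays and did not differ beyond its error between any of the subsets.

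The promoters of the genes that these results turn on are shown here, as the 250 bases before the annotated start, from RefSeq on GRCm38.p6. Tnfsf11 (chr14:78308044-78308293, minus strand) and Tnfrsf21 (chr17:43016305-43016554, plus strand) are the called pair. Tnf (chr17:35202008-35202257, minus strand) and Ltb (chr17:35194257-35194506, plus strand) are neighbours in 1 gene cluster, and in each experiment both were lower in the CD8aa subsets than in TCRab CD8ab. For Tnf in TCRgd CD8aa the log2 difference in experiment 2 was only -0.206. Lta, beside Tnf in the same cluster, did not follow on 100327_at. That probe set differed from TCRab CD8ab by 0.221 and 0.255 in TCRab CD8aa, and by 0.492 and -0.257 in TCRgd CD8aa. The other Lta probe set had -0.8 and -1.422, and -1.337 and 0.483. Capitals mark the NF-kB-like pattern GGGNNNNNCC on either strand.
Tnfsf11: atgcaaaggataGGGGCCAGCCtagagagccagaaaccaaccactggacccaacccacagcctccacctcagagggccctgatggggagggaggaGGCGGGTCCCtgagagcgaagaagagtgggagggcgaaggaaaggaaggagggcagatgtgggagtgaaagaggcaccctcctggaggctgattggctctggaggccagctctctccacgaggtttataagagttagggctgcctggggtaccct
Tnfrsf21: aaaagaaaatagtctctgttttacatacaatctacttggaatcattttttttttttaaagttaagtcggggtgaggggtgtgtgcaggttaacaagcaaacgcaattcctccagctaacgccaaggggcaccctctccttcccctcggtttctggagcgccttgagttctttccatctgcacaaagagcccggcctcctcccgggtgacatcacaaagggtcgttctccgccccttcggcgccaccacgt
Tnf: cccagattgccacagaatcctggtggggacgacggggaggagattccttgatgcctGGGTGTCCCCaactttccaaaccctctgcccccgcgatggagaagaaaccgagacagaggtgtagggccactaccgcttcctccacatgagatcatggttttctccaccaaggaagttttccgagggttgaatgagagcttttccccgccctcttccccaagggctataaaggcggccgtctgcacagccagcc
Ltb: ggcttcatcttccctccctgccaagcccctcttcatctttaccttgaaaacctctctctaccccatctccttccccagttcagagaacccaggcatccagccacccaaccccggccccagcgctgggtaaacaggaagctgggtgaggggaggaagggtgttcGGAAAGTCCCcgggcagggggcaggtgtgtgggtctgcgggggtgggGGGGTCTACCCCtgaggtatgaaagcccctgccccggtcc
The Tnfsf11 window holds 2 matches, that of Tnf 1 and that of Ltb 4, of which 3 overlap each other. The remaining match of Ltb, at base -87, overlaps a match to GGAAA. The Tnfrsf21 window holds 0 matches. Of the windows of 27025 genes, 45.4% hold at least 1 match. A TATAAA match, present in 13.0% of the windows, lies at base -32 of Tnfsf11 on the other strand and at base -29 of Tnf. A GGGCGG match, present in 32.9%, lies on the other strand at base -23 of Tnfrsf21 and base -49 of Tnf. TGANTCA, which 6.87% of the windows hold, was found in none of these 4, and GGAAA, which 55.6% hold, in all of them on 1 strand or the other. All 8 genes were in the promoter table, and a match describes the letters only.

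**Figure D1:**
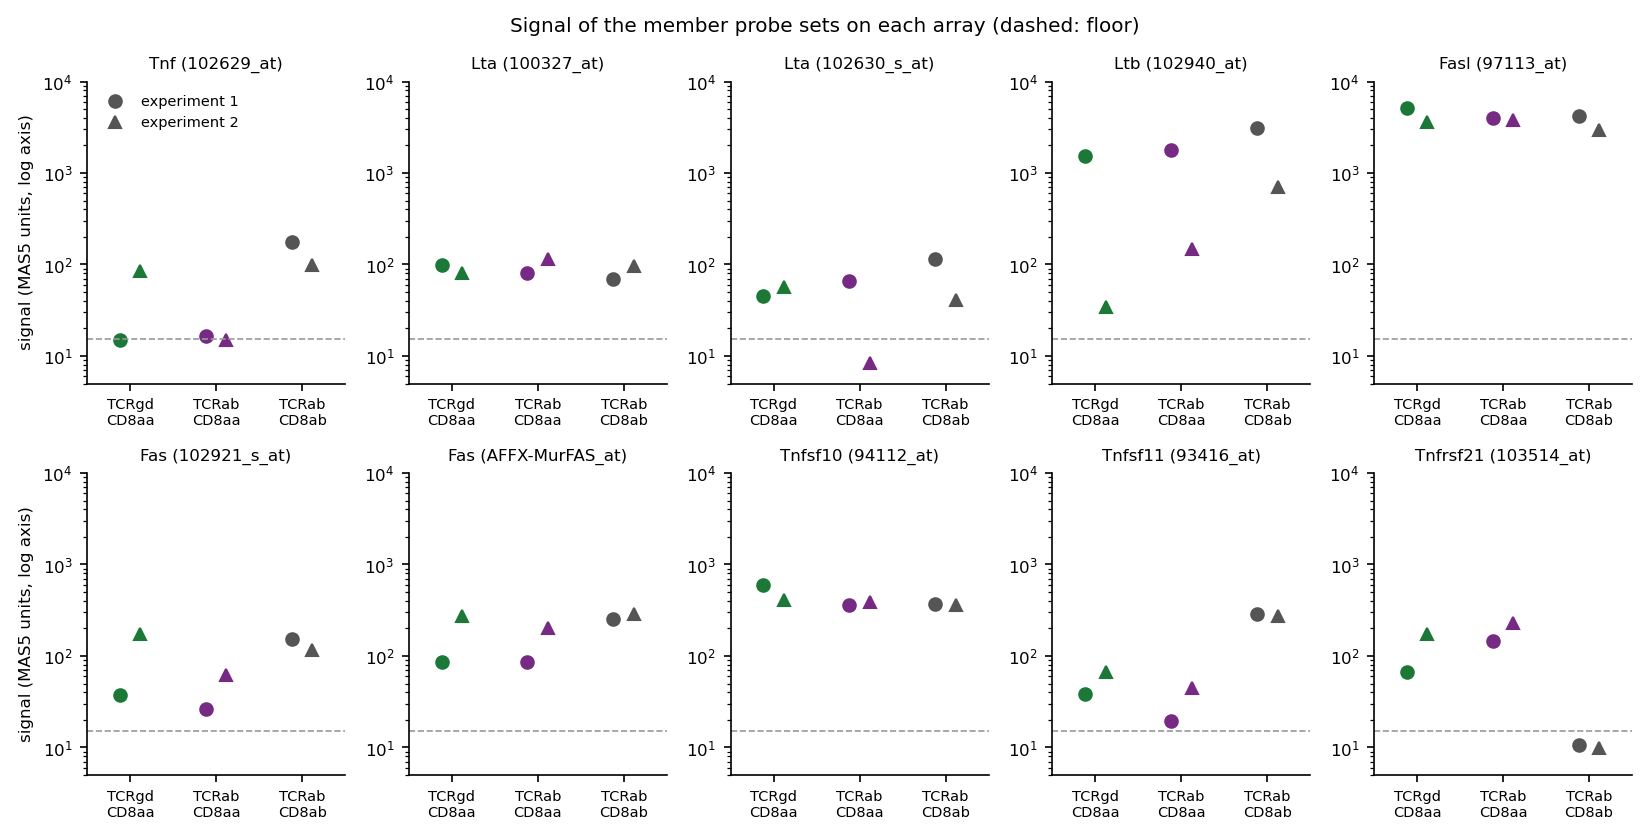
MAS5 signal (log axis) of each of the 10 probe sets on the 6 arrays, with circles for experiment 1, triangles for experiment 2 and the floor as a dashed line. Tnfsf11 is bright on both TCRab CD8ab arrays (287 and 276) and Tnfrsf21 lies below the floor on them, while Ltb separates by experiment in every subset.

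Among the ligands, Tnfsf11 had the clearest separation. RANKL drives the formation of osteoclasts in bone and, in the gut, of the M cells that sample antigen over lymphoid follicles. Its probe set (93416_at) had signals of 38.6 and 66.8 in TCRgd CD8aa, 19.4 and 44.3 in TCRab CD8aa, and 287 and 276 in TCRab CD8ab, in experiments 1 and 2. Both TCRab CD8ab arrays were above all 4 CD8aa arrays, and the arrays of the CD8aa subsets overlapped each other. In TCRab CD8aa against TCRab CD8ab, Tnfsf11 fell by 3.26 on the log2 scale, with an SE of 0.60 (limma with the experiment in the fit, adjusted p = 0.0481, n = 2 arrays a subset). The difference was -3.89 in experiment 1 and -2.64 in experiment 2. Without the experiment in the fit the SE was 0.71 and limma's adjusted p was 0.714.

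The same probe set was 5.54-fold lower in TCRgd CD8aa than in TCRab CD8ab, a log2 difference of -2.47 ± 0.60 (SE) that did not pass in limma (adjusted p = 0.188 with the experiment in the fit). Between TCRgd CD8aa and TCRab CD8aa it was 0.79, with a 95% interval of -0.56 to 2.14. The call in TCRab CD8aa was lost when any 1 of the 4 arrays of that comparison was left out, with adjusted p in limma from 0.110 to 0.216, after quantile normalization (0.0666) and with the floor at the 10th percentile (0.0572). Without the TCRab CD8ab arrays, on which it was bright, Tnfsf11 would not have passed the filter. Of the CD8aa arrays only that of TCRgd CD8aa in experiment 2 (66.8) was above the filter level of 56.4. Its call is therefore a description of a probe set tested through the subset in which it was bright. The summed signal of 4 CD4 helper T cell probe sets, a list that includes Ccr7, a homing receptor of naive T cells, was 237 and 352 in TCRgd CD8aa, 254 and 111 in TCRab CD8aa, and 2719 and 306 in TCRab CD8ab. Ccr7 itself had 19.1 and 6.9 in TCRgd CD8aa, 20.0 and 4.4 in TCRab CD8aa, and 2579 and 49.6 in TCRab CD8ab, highest in TCRab CD8ab in both experiments. Cd4 had 163.6 and 206.8 in TCRgd CD8aa, 189.1 and 91.2 in TCRab CD8aa, and 108.5 and 189.5 in TCRab CD8ab. Neither Cd4 nor the other genes of that list, Il2ra and Zbtb7b, were highest in TCRab CD8ab in either experiment. The part of CD4 helper or naive T cells in the difference of Tnfsf11 was not tested.

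Tnf, the inflammatory cytokine that binds Tnfrsf1a and Tnfrsf1b, was dim. Its probe set (102629_at) had signals of 15.1 and 84.7 in TCRgd CD8aa, 16.6 and 15.1 in TCRab CD8aa, and 178 and 97.7 in TCRab CD8ab. The TCRab CD8ab arrays were the highest, but the TCRgd CD8aa array of experiment 2 came close to them, and 1 array of each CD8aa subset lay at the floor. That TCRgd CD8aa array is the one with raised epithelial and Lyz2 signals, whose part in its Tnf signal was not tested. The log2 difference was -3.05 ± 0.92 (SE) for TCRab CD8aa over TCRab CD8ab, with a 95% interval of -5.13 to -0.97, and did not pass in limma over all probe sets (adjusted p = 0.285 with the experiment in the fit). For TCRgd CD8aa over TCRab CD8ab it was -1.87 ± 0.92, made of -3.54 in experiment 1 and -0.21 in experiment 2 (adjusted p = 0.655 in limma). Values set against an array at the floor understate the difference. The difference in TCRab CD8aa passed in limma without the TCRgd CD8aa array of experiment 1, where the spread was estimated on 5 arrays (adjusted p = 0.0226).

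Ltb and Lta encode the chains of membrane lymphotoxin, which signals through the lymphotoxin beta receptor and is needed for lymphoid organs. Ltb (102940_at) had signals of 1545 and 34.4 in TCRgd CD8aa, 1797 and 149 in TCRab CD8aa, and 3084 and 703 in TCRab CD8ab. In each experiment TCRab CD8ab was highest and TCRgd CD8aa lowest, and the experiments were so far apart that the subsets overlapped. The log2 difference from TCRab CD8ab was -2.68 ± 0.64 (SE) in TCRgd CD8aa, -1.0 in experiment 1 and -4.35 in experiment 2 (limma adjusted p = 0.186 with the experiment in the fit). It was -1.51 ± 0.64 in TCRab CD8aa, -0.78 in experiment 1 and -2.24 in experiment 2 (limma adjusted p = 0.475). In both comparisons the dimmer signals of experiment 2 gave the larger difference.

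The difference of Ltb between TCRgd CD8aa and TCRab CD8ab passed in limma with the experiment in the fit when either of 2 arrays was left out. It was -3.99 without the TCRgd CD8aa array of experiment 1 and -3.88 without the TCRab CD8ab array of experiment 1. Without the TCRgd CD8aa array of experiment 2, the one with enterocyte markers, it was -1.36 and did not pass (adjusted p = 0.788 in limma). The part of epithelial RNA in the low Ltb signal of that array was not tested. For TCRab CD8aa over TCRab CD8ab, leaving out the TCRgd CD8aa array of experiment 1 or 2 kept the difference at -1.51 and brought limma's adjusted p to 0.0449 and 0.0207.

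Lta, whose product also forms a secreted trimer that binds the TNF receptors, had 2 probe sets, both dim. The first (100327_at) had signals of 97.6 and 81.4 in TCRgd CD8aa, 80.9 and 116 in TCRab CD8aa, and 69.4 and 97.3 in TCRab CD8ab. Its subsets overlapped, with log2 differences from TCRab CD8ab of 0.12 ± 0.54 in TCRgd CD8aa and 0.24 ± 0.54 in TCRab CD8aa (SE). The second (102630_s_at), of a type that can match several transcripts, had 45.1 and 57.3 in TCRgd CD8aa, 65.4 and 8.4 in TCRab CD8aa, and 114 and 41.0 in TCRab CD8ab. Here too the arrays overlapped, and the 2 probe sets of Lta disagreed in sign in both comparisons with TCRab CD8ab, the second giving -0.43 ± 0.80 and -1.11 ± 0.80. Neither passed in any comparison.

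Fasl, the ligand by which cytotoxic lymphocytes kill cells that bear Fas, was bright throughout (97113_at). Its signals were 5118 and 3645 in TCRgd CD8aa, 4018 and 3834 in TCRab CD8aa, and 4151 and 2941 in TCRab CD8ab. The ranges of the subsets overlapped in every pair. The log2 difference was 0.31 (95% interval -0.34 to 0.95) for TCRgd CD8aa over TCRab CD8ab and 0.17 (-0.48 to 0.81) for TCRab CD8aa over TCRab CD8ab. For TCRgd CD8aa over TCRab CD8aa it was 0.14 (-0.51 to 0.78). These intervals leave room for differences of up to about 1 log2 unit.

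Tnfsf10 encodes TRAIL, which kills through its own death receptor. Its probe set (94112_at) had signals of 604 and 406 in TCRgd CD8aa, 358 and 392 in TCRab CD8aa, and 370 and 363 in TCRab CD8ab. Both TCRgd CD8aa arrays were above the other 4, by a narrow margin in experiment 2. The log2 difference was 0.43 ± 0.36 (SE) from TCRab CD8ab and 0.40 ± 0.36 from TCRab CD8aa, and neither passed in limma (adjusted p = 0.79 and 1.0 with the experiment in the fit). TCRab CD8aa differed from TCRab CD8ab by 0.03, with a 95% interval of -0.78 to 0.84.

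Of the receptors, Tnfrsf21 gave signals above the floor on the CD8aa arrays and not on the TCRab CD8ab arrays. Death receptor 6 has a cytoplasmic death domain and, in mice, restrains the activation of T helper cells. Its probe set (103514_at) had signals of 67.6 and 173 in TCRgd CD8aa, 145 and 229 in TCRab CD8aa, and 10.6 and 9.9 in TCRab CD8ab. Both TCRab CD8ab arrays lay below the floor and all 4 CD8aa arrays well above it. Tnfrsf21 rose in TCRab CD8aa by at least 11.9-fold over TCRab CD8ab, a log2 difference of 3.57 ± 0.63 (SE, n = 2) that passed in limma with the experiment in the fit (adjusted p = 0.0378) and not without it (adjusted p = 0.617). In experiments 1 and 2 the difference was 3.24 and 3.90.

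In TCRgd CD8aa the level of Tnfrsf21 was at least 7.07-fold that of TCRab CD8ab, with a log2 difference of 2.82 ± 0.63 (SE) that did not pass (limma adjusted p = 0.143 with the experiment in the fit). Without the TCRgd CD8aa array of experiment 1 it was 3.34. That left the subset with only its array of experiment 2, the one with enterocyte markers, whose part in this value was not tested. The CD8aa subsets differed by -0.75, with a 95% interval of -2.17 to 0.66 for TCRgd CD8aa over TCRab CD8aa. The call in TCRab CD8aa was lost without either TCRab CD8aa array or the TCRab CD8ab array of experiment 2, with adjusted p in limma from 0.130 to 0.356, and with the floor at the 30th percentile (0.0778). Like Tnfsf11, this probe set would not have passed the filter without the subsets in which it was bright. The summed enterocyte signals of these subsets, given above, were 2649 and 1477 in TCRab CD8aa and 2023 and 1313 in TCRab CD8ab, with 3 and 6 of 17 probe sets at the floor in TCRab CD8aa and 4 and 5 in TCRab CD8ab. Within that list Epcam, an adhesion molecule of epithelial cells, did separate them, with 617 and 517 in TCRab CD8aa and 75.9 and 38.1 in TCRab CD8ab. The part of epithelial RNA in the difference of Tnfrsf21 was not tested.

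Fas, the receptor of Fas ligand, was dim and varied between experiments in the CD8aa subsets. Its tested probe set (102921_s_at) had signals of 37.3 and 175 in TCRgd CD8aa, 26.1 and 61.8 in TCRab CD8aa, and 155 and 117 in TCRab CD8ab. TCRab CD8aa lay below TCRab CD8ab on both arrays, and TCRgd CD8aa overlapped both other subsets. The log2 difference from TCRab CD8ab was -1.75 ± 0.71 (SE) in TCRab CD8aa (limma adjusted p = 0.453 with the experiment in the fit). It was -0.74 ± 0.71 in TCRgd CD8aa, where the sign turned from -2.06 in experiment 1 to 0.58 in experiment 2. The TCRgd CD8aa array of experiment 2 is the one with enterocyte markers, whose part in its Fas signal was not tested. The control probe set (AFFX-MurFAS_at) was not tested and had 85.4 and 275 in TCRgd CD8aa, 86.2 and 203 in TCRab CD8aa, and 254 and 286 in TCRab CD8ab. On both probe sets the CD8aa arrays of experiment 1 were the lowest.

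**Figure D2:**
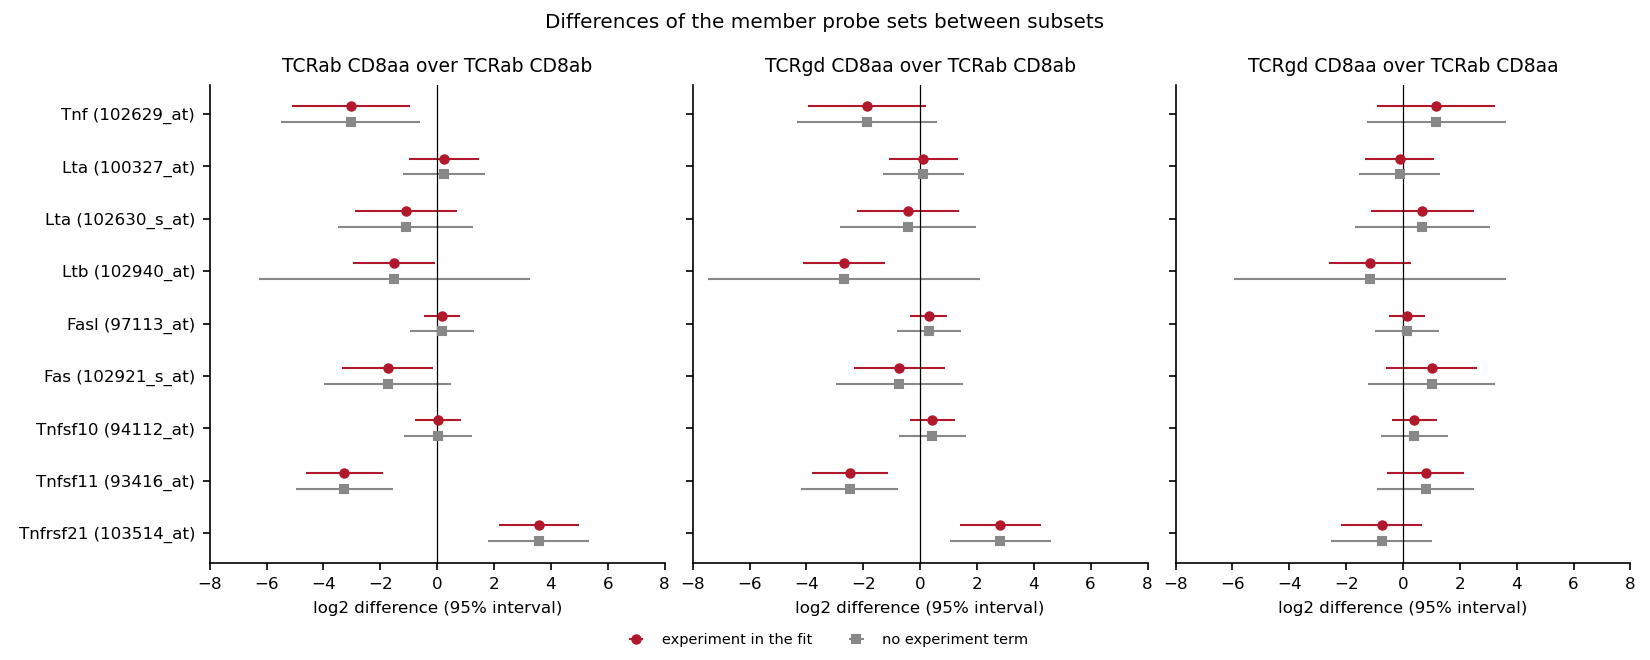
Log2 difference and 95% interval of the 9 tested probe sets in each comparison, in red with the experiment in the fit and in grey without it. The intervals of Tnfsf11 and Tnfrsf21 exclude 0 in both comparisons with TCRab CD8ab in either fit. The interval of Ltb narrows most when the experiment is a term, and then also excludes 0 in both. With that term those of Tnf and Fas exclude 0 in TCRab CD8aa over TCRab CD8ab.

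In TCRab CD8aa against TCRab CD8ab, limma without the experiment in the fit called 0 of 9 probe sets, as it called 0 of all 8299 (0%; smallest adjusted p = 0.269). At an unadjusted p under 0.05 that fit had 3 of the 9, against 2.25% of all, and the fit with the experiment had 5, against 10.1%. With the experiment in the fit 2 of 9 were called, Tnfrsf21 higher and Tnfsf11 lower, where the background was 0.819% (0.518% higher and 0.301% lower). The arrays of the 2 subsets did not overlap for 4 of the 9, with Tnfrsf21 higher and Tnf, Fas and Tnfsf11 lower, against 22.9% of all tested. The median log2 difference of the 9 was -1.11 and that of all tested -0.08. Tnfsf11, Tnf and Tnfrsf21 would not have passed the filter without the subsets in which they were bright, so these counts and medians are descriptions.

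In TCRgd CD8aa against TCRab CD8ab, limma called 0 of 9 in either fit, where the background was 0% without the experiment in the fit and 0.554% with it. At an unadjusted p under 0.05 there were 2 of 9 without the experiment in the fit and 3 with it, against 2.02% and 8.21% of all tested. The arrays did not overlap for 4 of the 9, with Tnfsf10 and Tnfrsf21 higher and Tnf and Tnfsf11 lower, against 19.8% of all tested. The median was -0.43 over the 9 and -0.06 over all. This comparison and the previous one share the TCRab CD8ab arrays.

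Between TCRgd CD8aa and TCRab CD8aa, limma called 0 of 9 in either fit, where the background was 0% without the experiment in the fit and 0.0241% with it. At an unadjusted p under 0.05 there were 0 of 9 in either fit, against 0.410% and 2.07% of all tested. The arrays did not overlap for Tnfsf10 alone, which was higher in TCRgd CD8aa, against 14.4% of all tested. The median was 0.40 over the 9 and 0.00 over all.

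**Figure D3:**
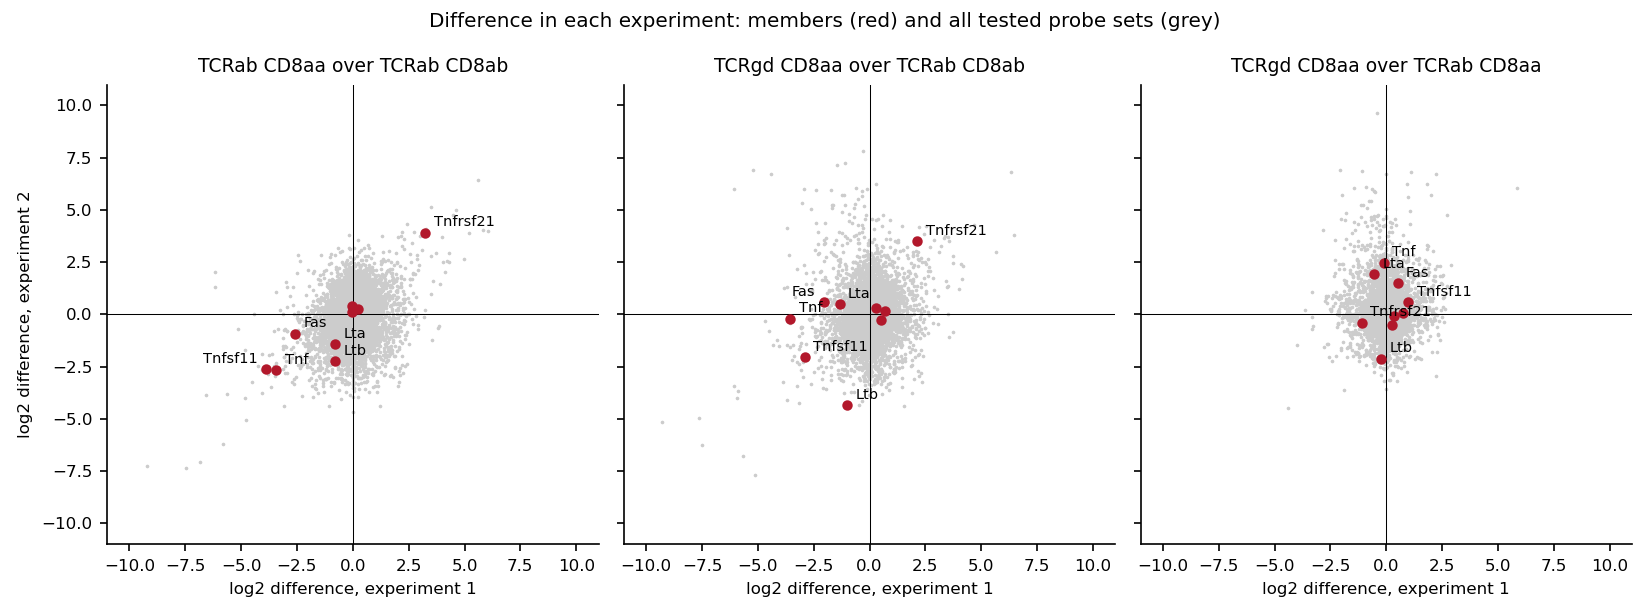
Log2 difference in experiment 2 (y axis) against that in experiment 1 (x axis) for the 9 tested probe sets (red) and all 8299 (grey), 1 panel per comparison. Tnfsf11 and Tnfrsf21 lie off both axes in the comparisons with TCRab CD8ab, and the red points without a name near the origin are Fasl, Tnfsf10 and the first Lta probe set.

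The difference between the experiments was itself largest for Ltb among the members. Its signal was 13.3-fold lower in experiment 2 than in experiment 1 over the 3 subsets, a log2 difference of -3.74 ± 0.52 (SE; limma adjusted p = 0.000985). It was the only one of 9 called, where 34.1% of all tested probe sets were. The other 8 had log2 differences between -1.08, for the second Lta probe set, and 1.02, for Fas. Fasl had -0.35 and Tnfsf10 -0.16. The mice, the occasion and the RNA of the experiments cannot be told apart.

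The genes whose pattern over the 6 arrays was most like that of the called members were found by the root mean square difference of log2 signals after the mean of each experiment was taken out. For Tnfsf11 they were Irf4 (0.159), S100a6 (0.244) and Rora (0.252). Irf4, a transcription factor of activated lymphocytes, had signals of 183 and 1007 in TCRgd CD8aa, 125 and 663 in TCRab CD8aa, and 1761 and 4887 in TCRab CD8ab. Rora, a nuclear receptor, had 247 and 116 in TCRgd CD8aa, 201 and 68.2 in TCRab CD8aa, and 2149 and 338 in TCRab CD8ab. In each experiment the 2 genes kept the order of Tnfsf11, lowest in TCRab CD8aa and highest in TCRab CD8ab. They were chosen for likeness on these same arrays, so the shared order is no separate result.

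For Tnfrsf21 the most alike were Myo6 (0.252), Epcam (0.27) and Osbpl5 (0.297). Myo6, a myosin motor, had signals of 844 and 8107 in TCRgd CD8aa, 1054 and 8691 in TCRab CD8aa, and 157 and 567 in TCRab CD8ab. Epcam had 351 and 694 in TCRgd CD8aa, beside the values of the other subsets given above. Fabp1, the fatty acid binding protein of enterocytes, had 206 and 5134 in TCRgd CD8aa, 418 and 136 in TCRab CD8aa, and 492 and 171 in TCRab CD8ab.

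The rest of the pathway showed no called gene in any fit or comparison. Of 12 other ligands of the family 6 were on the array and 3 were tested; of 26 other receptors 13 and 7. Of 37 adaptors and death signalling genes 29 were on the array and 27 tested, and of 22 NF-kB subunits, inhibitors and kinases 17 and 17. For TCRab CD8aa over TCRab CD8ab the median log2 differences were -0.49 for the other ligands, 0.67 for the other receptors, -0.09 for the adaptors and 0.06 for NF-kB. For TCRgd CD8aa over TCRab CD8ab they were -0.08, 0.58, -0.20 and 0.01, beside medians of all tested probe sets near 0. The list medians take only the brightest tested probe set of each gene. Taken so, the median of the members was -0.74 for TCRab CD8aa over TCRab CD8ab and -0.31 for TCRgd CD8aa over TCRab CD8ab.

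Traf1, an adaptor that NF-kB induces and that binds several TNF receptors, came nearest to the threshold. Its signals were 567 and 481 in TCRgd CD8aa, 283 and 393 in TCRab CD8aa, and 913 and 1638 in TCRab CD8ab. The 3 subsets did not overlap. The log2 difference of TCRab CD8aa from TCRab CD8ab was -1.88 ± 0.36 (SE; limma adjusted p = 0.0585 with the experiment in the fit), and that of TCRgd CD8aa was -1.23 ± 0.36 (adjusted p = 0.323). Birc3, an inhibitor of apoptosis that works with the Traf proteins, had -1.19 ± 0.31 in TCRab CD8aa (limma adjusted p = 0.185).

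Among the other ligands, Tnfsf4, which encodes OX40 ligand, had signals of 53.9 and 64.6 in TCRgd CD8aa, 13.7 and 27.1 in TCRab CD8aa, and 131 and 112 in TCRab CD8ab. Its 3 subsets also did not overlap, with -2.57 ± 0.67 (SE) for TCRab CD8aa over TCRab CD8ab (limma adjusted p = 0.184 with the experiment in the fit) and 1.54 for TCRgd CD8aa over TCRab CD8aa. Both are bounds, since the TCRab CD8aa array of experiment 1 lay at the floor. Cd70 and Eda, the other tested ligands, differed in sign between the experiments in both comparisons with TCRab CD8ab.

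The receptors of Tnf leaned the other way from Tnf itself without passing. Tnfrsf1a, which carries a death domain, had signals of 2041 and 650 in TCRgd CD8aa, 1762 and 1049 in TCRab CD8aa, and 1026 and 571 in TCRab CD8ab, with a log2 difference of 0.83 ± 0.34 for TCRab CD8aa over TCRab CD8ab (limma adjusted p = 0.45). Tnfrsf1b, which has none, had 0.67 ± 0.29 (adjusted p = 0.491 in limma). Tnfrsf9, the costimulatory receptor 4-1BB, had 0.93 ± 0.32 (adjusted p = 0.384 in limma), with the same sign in both experiments.

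Tnfrsf17, the survival receptor BCMA of plasma cells, had signals of 96.4 and 168 in TCRgd CD8aa, 59.6 and 40.3 in TCRab CD8aa, and 40.8 and 12.2 in TCRab CD8ab. It was 2.35 ± 0.74 higher on the log2 scale in TCRgd CD8aa than in TCRab CD8ab and did not pass (limma adjusted p = 0.365 with the experiment in the fit), a bound, since the TCRab CD8ab array of experiment 2 lay at the floor. Jchain, a plasma cell gene, was 84.3 and 4023 in TCRgd CD8aa, 61.8 and 211 in TCRab CD8aa, and 678 and 102 in TCRab CD8ab. The 28 B and plasma cell probe sets, which include that of Jchain, summed to 9759 and 7975 in TCRgd CD8aa. Their sums were 9889 and 2964 in TCRab CD8aa, and 7745 and 2633 in TCRab CD8ab. The part of plasma cells in the Tnfrsf17 difference was not tested.

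Further down the pathway, Casp6, an effector caspase, had 1.03 ± 0.39 for TCRgd CD8aa over TCRab CD8ab (SE; limma adjusted p = 0.504). Of the NF-kB genes, Ikbke, a kinase related to the IkB kinases, had -1.08 ± 0.47 in the same comparison (limma adjusted p = 0.585). Tab2, an adaptor of the kinase Tak1, had 0.74 ± 0.33 there (adjusted p = 0.617 in limma). In experiments 1 and 2 the differences were 0.51 and 1.55 for Casp6, -0.52 and -1.64 for Ikbke, and 0.27 and 1.21 for Tab2. The TCRgd CD8aa array of experiment 2 is the one with enterocyte markers, whose part in these differences was not tested. Nfkbia, the inhibitor IkB alpha, had -0.70 ± 0.31 for TCRab CD8aa over TCRab CD8ab (limma adjusted p = 0.492).

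**Figure D4:**
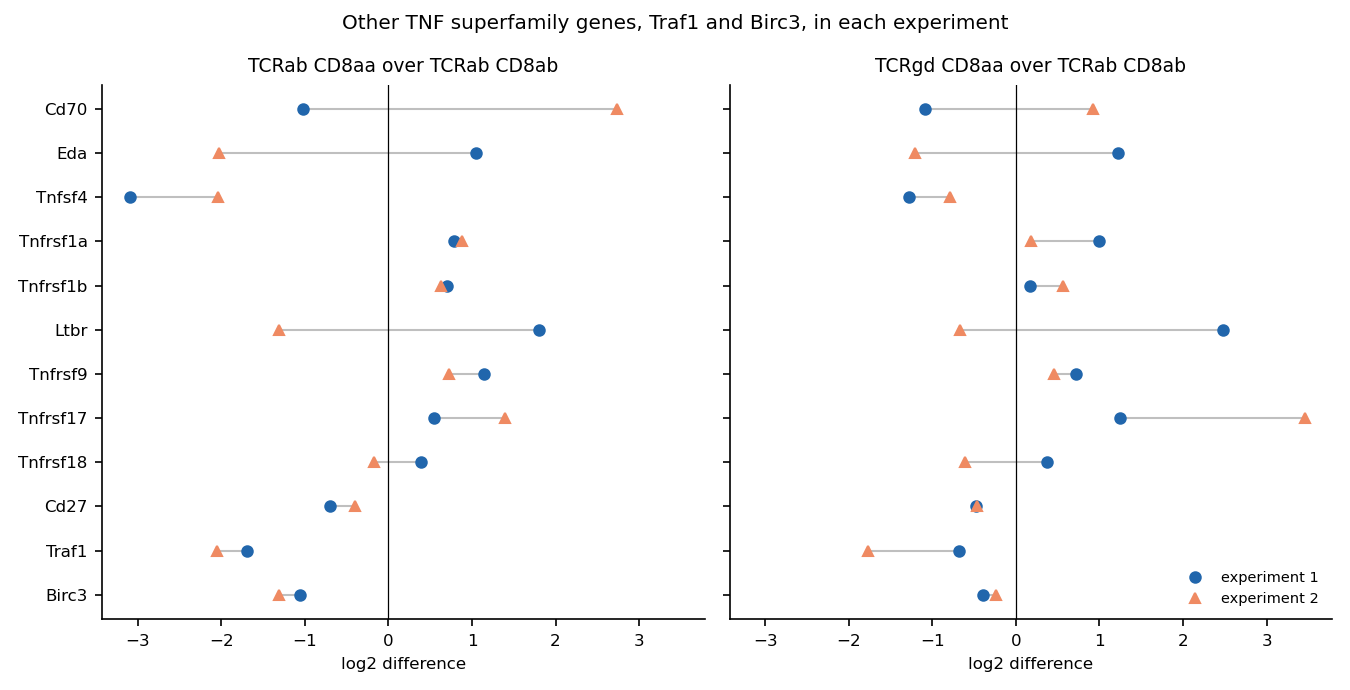
Log2 difference in experiment 1 (circles) and experiment 2 (triangles) for the 10 other tested ligands and receptors of the family, Traf1 and Birc3, in the comparisons with TCRab CD8ab. Traf1 and Tnfsf4 lie left of 0 in both experiments and both panels, while Cd70 and Eda cross 0.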

How the data were processed

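Messenger RNA of 3 sorted subsets was measured on 6 arrays, 1 per subset in each of 2 experiments. The authors deposited MAS5 signal intensity per probe set, per the labels and the submitters' processing notes, and the values of each array share 1 trimmed mean. The MAS5 version is not given in the sources used here. The trimmed mean (2% left out at each end) was 500.38 to 500.45, so the further factor applied was 0.999915 to 1.00006. Values under the 20th percentile (15.3) were set to it, log2 was taken, and probe sets with at least 2 arrays above the 40th percentile (56.4) were tested, 8299 of 12488 after 66 controls were left out. Gene names came from the platform annotation: 10833 probe sets had 1 symbol, 396 several and 1193 no entry. No 2 arrays shared more than 45 exactly equal deposited values.

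The 3 comparisons between subsets were fitted across all tested probe sets with limma 3.58.1 in R 4.3.3 (intensity trend in eBayes, all 6 arrays), with Benjamini-Hochberg adjustment over the 8299 and a threshold of 0.05. The design has no experiment term. A fit with the experiment as a replicate block was an alternative. All 3 subsets of an experiment came from the same pool of 20 mice, so the numbers pair the arrays, and deviations from subset means correlated at 0.618, 0.713 and 0.603 between subsets. Standard errors and intervals are those with the experiment in the fit unless stated. They are pooled over the subsets. Without the experiment in the fit, p-values measure the spread between pools. With it, they measure how far the differences between subsets vary from 1 pool to the other. Neither measures the spread between mice, and the small number of arrays limits every value.

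The members, gene lists and tests were chosen with earlier results of these data known. Named were all member probe sets and, of each further list, called genes or else the 3 with the smallest p. Also named were the 3 genes most like each called member, and Fabp1, Epcam, Cd8b1 and control probe sets. Ccr7, Cd4, Il2ra, Zbtb7b, Jchain, Lyz2, Itgax, H2-Aa, H2-Ab1, Cd74, Cd68 and Tnfrsf1b were named after their values were seen. Where a gene of a further list had several probe sets, the brightest tested one stood for it, and for Nfkbia the other tested one was also given. Promoters are RefSeq's on GRCm38.p6, matched by symbol for all 8 genes. The fits were tested on simulated data. Other scalings, floors, filters, sample choices and each array left out were tried, alone and with the block.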

Additional observations from a re-analysis of the deposited data

How the results depend on the processing

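Without the experiment in the fit, limma called 0 of the 9 probe sets in each comparison between subsets under every other setting tried. With it as a replicate block, TCRab CD8aa over TCRab CD8ab had 2. The count with the block was also 2 with no further scaling, with an added constant in place of a floor and at an adjusted p under 0.10. It was 1 after quantile normalization (Tnfrsf21), with the floor at the 10th percentile (Tnfrsf21) or the 30th (Tnfsf11), and 4 on the arrays of the 2 groups alone, which added Tnf and Ltb. It was 0 without the filter, with a filter at the 60th percentile, which left 4 of the 9 tested, and without the intensity trend. Leaving out 1 array at a time gave 0 to 4. The block left 0 in the other 2 comparisons, where leaving out 1 array gave 0 to 2 for TCRgd CD8aa over TCRab CD8ab and 0 to 1 for TCRgd CD8aa over TCRab CD8aa (Ltb, -2.48, without the TCRgd CD8aa array of experiment 1). Between experiments the count was 1, 0 without the filter, and 1 to 2 with 1 array left out. The cause of these shifts was not tested.

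Signs turned only when 1 array was left out, counted over the fits with and without the block, in 8 of 269 recomputed differences for TCRab CD8aa over TCRab CD8ab, 10 for TCRgd CD8aa over TCRab CD8ab and 15 for TCRgd CD8aa over TCRab CD8aa, and in none of Tnfsf11 or Tnfrsf21. Over both fits, the left-out values for TCRab CD8aa over TCRab CD8ab ran from -0.022 to 0.50 for Lta (100327_at), -3.30 to 0.29 for Ltb, -0.19 to 0.25 for Tnfsf10 and -0.081 to 0.42 for Fasl. For TCRgd CD8aa over TCRab CD8ab they ran from -0.27 to 0.50 for Lta (100327_at), -1.49 to 0.64 for Lta (102630_s_at), -1.85 to 0.38 for Fas and -5.42 to 0.069 for Ltb. For TCRgd CD8aa over TCRab CD8aa they ran from -0.50 to 0.26 for Lta (100327_at), -0.31 to 2.66 for Tnf, -0.38 to 1.75 for Lta (102630_s_at), -0.11 to 2.13 for Fas, -3.91 to 1.58 for Ltb and -0.11 to 0.38 for Fasl. The outer values of Ltb come from the fit without the block, where an array left out unbalances the experiments. Dim signals limit Tnf, Lta, Fas and Tnfrsf21, and arrays at the floor bound the differences of Tnf, Tnfrsf21 and the second Lta probe set.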
